A study of Rattus norvegicus with 8 samples.

Results

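The aryl hydrocarbon receptor (AHR) axis was followed through 6 genes: the receptor gene Ahr, the repressor gene Ahrr, and the receptor targets Cyp1a1, Cyp1b1, Aldh3a1 and Tiparp. They were taken by gene name, and all 6 were found among the 9025 genes with an entry in at least 1 of the 5 deposited tables of pairwise comparisons. Counts in all 8 libraries were at hand for 5 of them, and Ahrr had an entry in 1 table only. RNA came from primary cultures of ventricular cardiomyocytes, the contractile cells of the heart's main pumping chambers, of Sprague Dawley rats aged 2 to 3 days. The cells were held for 24 h under ischemia, which the labels give as 1% oxygen with 5% CO2, or under normoxia, whose oxygen level they do not give. Eugenol, the phenol that gives clove oil its smell, was given at 10 µM in each condition, and the other cells had DMSO, a common solvent. The 4 groups were thus ischemia with eugenol, ischemia with DMSO, normoxia with eugenol and normoxia with DMSO, with 2 libraries each and totals of 14.7 to 17.7 megareads.

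AHR is a transcription factor of the bHLH-PAS family that waits in the cytoplasm in a complex with the chaperone HSP90 until a ligand binds. It then enters the nucleus, pairs with ARNT and binds the xenobiotic response element, whose core is GCGTG, near genes such as Cyp1a1 and Cyp1b1. ARNT is also the partner of the hypoxia-inducible factors (HIF), and AHRR and TIPARP, both induced by AHR, act back on it as inhibitors. In the heart the pathway is known mainly from dioxin toxicity and from ligands in polluted air and smoke.

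Ischemic cells held more RNA of the target genes and less of the receptor. Cyp1a1 rose most, by a log2 fold change of 5.42 with DMSO and 5.43 with eugenol in the authors' deposited tables, Aldh3a1 rose by 2.91 and 3.02, Cyp1b1 by 1.30 and 1.20, and Tiparp by 0.52 and 0.39. Ahr fell by 0.67 with DMSO and by 0.51 with eugenol on the same log2 scale. Eugenol changed none of the genes past the threshold at either oxygen level.

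All 6 genes are listed as protein coding, with positions that the tables give without naming a genome build. Cyp1a1 lies at chr8:62472095-62478147 on the plus strand, Cyp1b1 at chr6:2307808-2316722 on the minus strand, Ahr at chr6:54963990-55001464 on the minus strand, Ahrr at chr1:31603297-31698329 on the plus strand, Tiparp at chr2:157316266-157341469 on the plus strand and Aldh3a1 at chr10:47490153-47499876 on the plus strand. RefSeq promoter windows, 250 bases before to 50 after the annotated start on the build GRCr8, were held for 4 of the 6 genes. GRCr8 has Cyp1b1 on the plus strand and the deposited tables have it on the minus strand, so positions from these 2 sources are not to be combined. The windows of Cyp1b1, Ahrr and Tiparp are printed because they hold the core GCGTG, shown in capitals, or as CACGC where it lies on the other strand.

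Cyp1b1 promoter, chr6:21094315-21094614, plus strand: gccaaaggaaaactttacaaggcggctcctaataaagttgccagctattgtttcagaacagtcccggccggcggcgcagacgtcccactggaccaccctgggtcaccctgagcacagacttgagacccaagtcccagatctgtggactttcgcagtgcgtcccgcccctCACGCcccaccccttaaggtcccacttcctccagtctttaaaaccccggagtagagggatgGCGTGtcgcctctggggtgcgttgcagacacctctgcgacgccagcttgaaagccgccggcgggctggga
Ahrr promoter, chr1:30821969-30822268, plus strand: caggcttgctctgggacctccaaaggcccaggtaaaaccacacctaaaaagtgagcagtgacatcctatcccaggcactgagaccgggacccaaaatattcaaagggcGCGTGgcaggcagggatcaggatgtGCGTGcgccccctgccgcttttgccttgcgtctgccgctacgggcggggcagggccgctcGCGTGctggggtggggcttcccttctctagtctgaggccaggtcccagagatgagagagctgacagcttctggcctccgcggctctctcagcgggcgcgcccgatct
Tiparp promoter, chr2:152063519-152063818, plus strand: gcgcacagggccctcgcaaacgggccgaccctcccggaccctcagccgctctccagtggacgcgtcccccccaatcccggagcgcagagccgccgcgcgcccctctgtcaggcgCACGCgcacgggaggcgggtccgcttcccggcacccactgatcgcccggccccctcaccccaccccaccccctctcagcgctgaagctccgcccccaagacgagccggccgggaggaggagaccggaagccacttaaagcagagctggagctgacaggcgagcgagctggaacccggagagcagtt

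The Cyp1b1 window held 2 copies of GCGTG, beginning 81 bases upstream on the other strand and 20 bases upstream on the strand of the gene. The Ahrr window held 3, beginning 142, 117 and 57 bases upstream, and the Tiparp window held 1, 136 bases upstream on the other strand. The window of Ahr held 0. The longer form TNGCGTG was found once in Cyp1b1 and once in Ahrr, each time overlapping a GCGTG match. Searched on both strands, GCGTG was present in 29.7% and TNGCGTG in 4.89% of the 33465 rat windows of the same length. GCGTG is also a form of the core bound by HIF with ARNT, whose other form, ACGTG, was found in 19.3% of windows and in 0 of these 4.

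Ahr, which encodes the receptor, had 17.2 and 20.8 RPM (the deposited count per megaread of the library total behind the FPKM values) in ischemia with eugenol, and 17.7 and 15.4 RPM in ischemia with DMSO. It had 28.4 and 25.7 RPM in normoxia with eugenol, and 22.6 and 30.0 RPM in normoxia with DMSO. All 4 ischemia libraries lay below all 4 normoxia libraries, while eugenol and DMSO libraries overlapped at both oxygen levels. With DMSO, Ahr averaged 16.5 ± 1.64 RPM in ischemia and 26.3 ± 5.25 RPM in normoxia (SD, n = 2 each), a fall by 0.67 on the log2 scale with an adjusted p of 0.00540 in the authors' deposited table. With eugenol it averaged 19.0 ± 2.54 RPM in ischemia and 27.1 ± 1.87 RPM in normoxia (SD, n = 2 each), a fall by 0.51 with an adjusted p of 0.0245 in the authors' deposited table. The size of this fall depended on the scaling of the libraries. Scaled to the library totals, the median of the 6582 genes with counts in all libraries was itself at a log2 fold change of -0.31 with DMSO and -0.30 with eugenol, and DESeq2 size factors brought these medians to -0.08 in both. These genes were selected by an entry in a deposited table, and 6546 had an unadjusted p under 0.05 with DMSO in the edgeR refit. Their medians are therefore not those of all genes. The size factors were computed on the same genes, and which scaling is the better one was not tested. With those size factors the edgeR quasi-likelihood refit put Ahr at -0.44 with DMSO (Benjamini-Hochberg adjusted p = 0.0355) and at -0.28 with eugenol (adjusted p = 0.215), so that the call with eugenol was lost. By edgeR, leaving out the second normoxia DMSO library put the change with DMSO at -0.45 (adjusted p = 0.0537), and leaving out the first library of ischemia or of normoxia put that with eugenol at -0.38 (adjusted p = 0.156) or -0.43 (adjusted p = 0.132).

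Cyp1a1 encodes the cytochrome P450 that oxidises polycyclic aromatic ligands of AHR and is the usual readout of the receptor. It had 190 and 281 reads in ischemia with eugenol, and 219 and 139 reads in ischemia with DMSO. It had 2 and 8 reads in normoxia with eugenol, and 4 and 4 reads in normoxia with DMSO. On the scale of RPM these were 11.9 and 16.8 in ischemia with eugenol, 12.3 and 8.72 in ischemia with DMSO, 0.129 and 0.545 in normoxia with eugenol, and 0.242 and 0.249 in normoxia with DMSO. The gene was thus near the limit of counting in normoxia and plainly present in every ischemia library. With DMSO the log2 fold change of 5.42 had an adjusted p of 7.20e-17 in the authors' deposited table. The ratio of scaled reads was 43.4 with DMSO, with an exact 95% interval of 21.8 to 101 that covers counting error only, and 43.4 with eugenol, with an interval of 23.4 to 91.1. In the edgeR refit, which adds the spread between libraries, the log2 fold change was 5.43 ± 0.45 (SE) with DMSO, with a 95% interval of 4.46 to 6.40. How reads that Cyp1a1 shares with its paralog Cyp1a2 were counted is not given in the sources used here.

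Cyp1b1 encodes the P450 of the same family that predominates outside the liver and that also metabolises oestradiol and fatty acids. It had 251 and 295 RPM in ischemia with eugenol, 264 and 262 RPM in ischemia with DMSO, 118 and 120 RPM in normoxia with eugenol, and 119 and 94.8 RPM in normoxia with DMSO. Every ischemia library stood above every normoxia library, and with DMSO the means rest on 8864 reads in ischemia and 3491 reads in normoxia. The rise by 1.30 with DMSO had an adjusted p of 4.27e-25 in the authors' deposited table, and that by 1.20 with eugenol had an adjusted p of 5.64e-27 in the authors' deposited table.

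Levels of the 2 cytochromes can be compared per length, in FPKM. Cyp1b1 averaged 49.7 ± 5.64 FPKM in ischemia with eugenol, 47.8 ± 0.248 FPKM in ischemia with DMSO, 21.6 ± 0.268 FPKM in normoxia with eugenol and 19.4 ± 3.09 FPKM in normoxia with DMSO (SD, n = 2 each). Cyp1a1 averaged 5.44 ± 1.33 FPKM in ischemia with eugenol, 3.99 ± 0.970 FPKM in ischemia with DMSO, 0.128 ± 0.111 FPKM in normoxia with eugenol and 0.0930 ± 0.00187 FPKM in normoxia with DMSO (SD, n = 2 each). Per library, the FPKM of Cyp1b1 was 8.41 to 14.4 times that of Cyp1a1 in ischemia and 106 to 437 times in normoxia, so Cyp1b1 remained the more abundant of the pair throughout.

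Aldh3a1, an aldehyde dehydrogenase that clears aldehydes from lipid peroxidation, had 96 and 133 reads in ischemia with eugenol and 135 and 92 reads in ischemia with DMSO. It had 17 and 9 reads in normoxia with eugenol and 11 and 18 reads in normoxia with DMSO. The ischemia libraries, at 5.77 to 7.96 RPM, did not overlap the normoxia libraries, at 0.613 to 1.12 RPM. With DMSO it averaged 6.69 ± 1.30 RPM in ischemia and 0.892 ± 0.321 RPM in normoxia (SD, n = 2 each), a log2 fold change of 2.91 with an adjusted p of 3.93e-08 in the authors' deposited table. The scaled read ratio was 7.58 with DMSO, with a counting interval of 5.14 to 11.6, and 8.12 with eugenol, with an interval of 5.40 to 12.7.

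Tiparp encodes a mono-ADP-ribosyltransferase of the PARP family that modifies AHR and lowers its activity. It had 56.8 and 60.9 RPM in ischemia with eugenol, 60.2 and 62.7 RPM in ischemia with DMSO, 46.4 and 43.0 RPM in normoxia with eugenol, and 43.7 and 41.8 RPM in normoxia with DMSO. The ischemia and normoxia libraries did not overlap, although the change was the smallest among the 4 targets. The rise by 0.52 with DMSO had an adjusted p of 0.000761 in the authors' deposited table, and that by 0.39 with eugenol had one of 0.0141 in the authors' deposited table. Its size also depended on the scaling. The edgeR refit gave 0.52 with DMSO and 0.40 with eugenol on library totals, and 0.75 and 0.62 with DESeq2 size factors.

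Ahrr encodes the repressor that competes with AHR for ARNT. It was listed only for ischemia with eugenol over normoxia with DMSO, where it had 76 and 112 reads against 44 and 55 reads. In RPM these were 4.75 and 6.71 in ischemia with eugenol and 2.66 and 3.42 in normoxia with DMSO, and the groups did not overlap. The log2 fold change of 0.91 had an adjusted p of 0.0802 in the authors' deposited table and was not called. The edgeR quasi-likelihood refit of these 4 libraries and the other alternatives gave adjusted p-values of 0.0112 to 0.0852, and leaving out 1 library gave 0.0339 to 0.261, so the call for Ahrr depends on the test. Its levels in the other 2 groups were not analysed here.

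**Figure D1:**
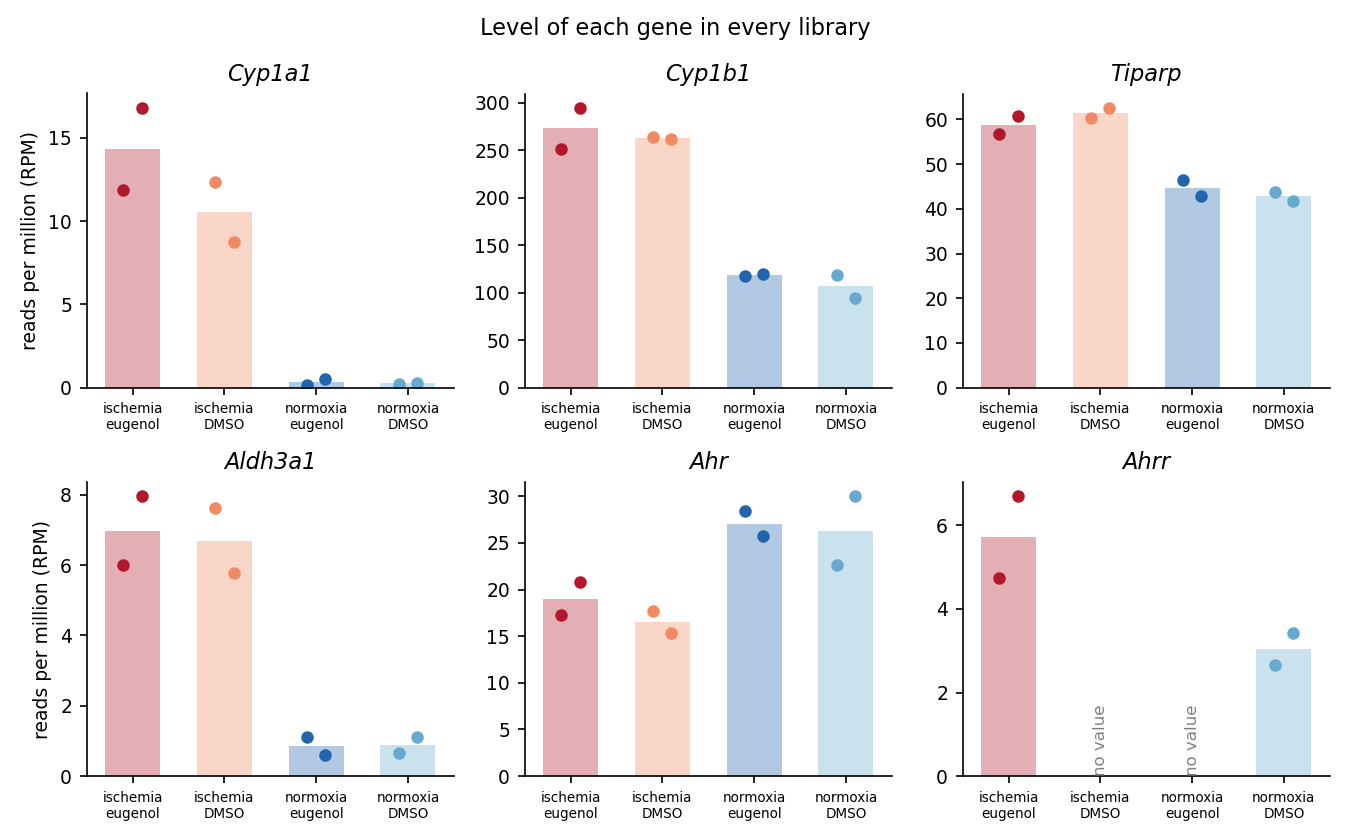
Level (y axis, RPM) of each gene in every library; bars are the means of the 2 libraries of a group and points are the libraries, with each y axis starting at 0 and scaled to its own gene. Ischemia libraries stand above normoxia libraries for Cyp1a1, Cyp1b1, Tiparp and Aldh3a1 and below them for Ahr, and Ahrr has values in 2 groups only.

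The order of the genes by FPKM differed between the oxygen levels. In ischemia with DMSO it ran from Cyp1b1 at 47.8 and Tiparp at 26.1 FPKM to Cyp1a1 at 3.99, Aldh3a1 at 3.82 and Ahr at 3.21 FPKM. In normoxia with DMSO it ran from Cyp1b1 at 19.4 and Tiparp at 18.2 FPKM to Ahr at 5.12, Ahrr at 0.647, Aldh3a1 at 0.509 and Cyp1a1 at 0.0930 FPKM. Ahr stood clear of Cyp1a1 and Aldh3a1 in normoxia. In ischemia with DMSO the 3 genes overlapped, at 2.99 to 3.44 FPKM for Ahr, 3.30 to 4.34 FPKM for Aldh3a1 and 3.31 to 4.68 FPKM for Cyp1a1. In normoxia with DMSO Cyp1b1 overlapped Tiparp, and Ahrr overlapped Aldh3a1.

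The first comparison asks what ischemia did to these genes without eugenol. All 6 genes had an unadjusted p under 0.05 in at least 1 deposited comparison and were chosen with earlier results of these data known. Their shares called may thus be raised in advance, and those of all genes stand beside them only as a description. Of the 6 genes, 4 were called higher and 1 lower at the authors' adjusted p under 0.05 in ischemia over normoxia with DMSO, where 40.9% of the 16406 genes tested were called, 19.7% higher and 21.2% lower. With eugenol in both arms, 4 were called higher and 1 lower, against 41.1% of all genes called, 19.6% higher and 21.5% lower. Ischemia with eugenol over normoxia with DMSO, which differs in both factors and shares libraries with the other comparisons, gave 4 higher and 0 lower, against 39.3% of all genes called, 18.5% higher and 20.8% lower. There Ahr and Ahrr were listed without being called. Cyp1a1 had a log2 fold change of 5.86, Aldh3a1 of 2.96, Cyp1b1 of 1.34, Tiparp of 0.45 and Ahr of -0.48 in the authors' deposited table, with an adjusted p of 0.0744 for Ahr. The edgeR quasi-likelihood refit gave Ahr -0.47 there with an adjusted p of 0.0281, and 0.00536 to 0.411 when 1 library was left out.

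The next comparisons ask whether eugenol moved the genes. None of the 6 had an entry in the deposited table for eugenol over DMSO in ischemia, where 0.121% of all genes were called, or in normoxia, where 0.181% were. The edgeR quasi-likelihood refit called 0 of the 5 genes with all counts at both oxygen levels. Of the 6582 genes fitted it called 1 in ischemia and 3 in normoxia. These are 0.00527% and 0.0209% of the genes the authors adjusted over, most of which were not fitted. At an unadjusted p under 0.05, 0 of the 5 passed by edgeR and 0 by DESeq2. In ischemia, Cyp1a1 averaged 14.3 ± 3.50 RPM with eugenol and 10.5 ± 2.56 RPM with DMSO (SD, n = 2 each), and the libraries overlapped. The refit's log2 fold change for Cyp1a1 was 0.44, with a 95% interval of -0.14 to 1.03, so a rise of that size could not be told from the spread. For Cyp1b1 the interval was -0.18 to 0.29, for Tiparp -0.26 to 0.13, for Ahr -0.14 to 0.55 and for Aldh3a1 -0.56 to 0.67. In normoxia the intervals were -0.09 to 0.40 for Cyp1b1, -0.14 to 0.26 for Tiparp and -0.29 to 0.37 for Ahr. The few reads of the other two in normoxia left wide intervals, -1.24 to 2.12 for Cyp1a1 and -1.04 to 0.94 for Aldh3a1.

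Whether the effect of ischemia differed with eugenol was tested as an interaction in the same refit. It called 0 of the 5 genes, 0 also at an unadjusted p under 0.05 by edgeR and by DESeq2, where 0.0152% of the 6582 genes were called. The difference between the ischemia effects with eugenol and with DMSO was 0.01 for Cyp1a1, with an interval of -1.78 to 1.79 on the log2 scale. It was -0.10 for Cyp1b1 (-0.44 to 0.24), -0.13 for Tiparp (-0.40 to 0.15), 0.16 for Ahr (-0.32 to 0.64) and 0.11 for Aldh3a1 (-1.05 to 1.27).

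**Figure D2:**
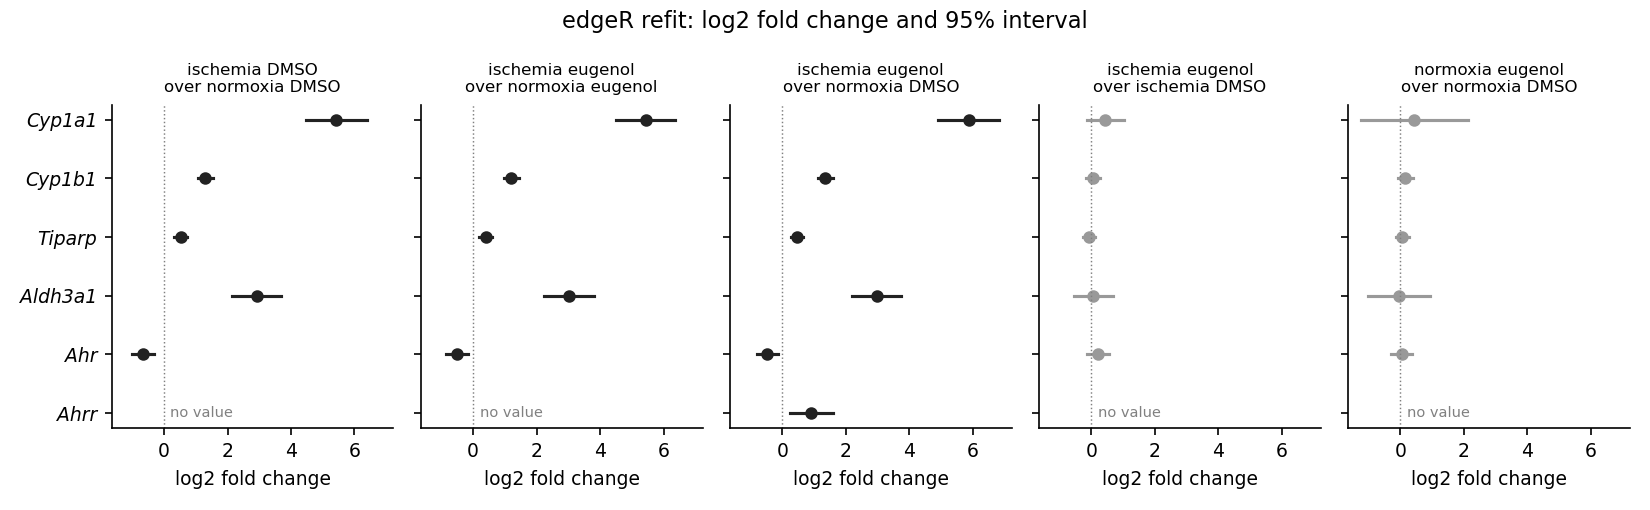
Log2 fold changes from the edgeR refit (x axis, first-named over second-named group) with 95% intervals as bars, for each gene and each pair of groups; black marks an adjusted p under 0.05 and grey a larger one. The intervals of Cyp1a1, Aldh3a1, Cyp1b1 and Tiparp lie above 0 and that of Ahr below 0 in the 3 pairs of ischemia over normoxia, and every interval of eugenol over DMSO includes 0.

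The machinery around the receptor moved in both directions. Of 11 genes of the AHR complex, its partners and coactivators, 5 were called higher and 1 lower in ischemia over normoxia with DMSO, where 19.7% of all genes were called higher and 21.2% lower, with a median log2 fold change of 0.64 over the 7 listed, against -0.27 over all 7694 genes listed. Arnt, the obligate partner of AHR and of HIF, had 68.0 and 67.1 RPM in ischemia and 34.3 and 35.3 RPM in normoxia, a rise by 0.95 with an adjusted p of 1.01e-10 in the authors' deposited table. Its paralog Arnt2 had 4.06 and 3.39 RPM in ischemia and 10.6 and 11.9 RPM in normoxia, a fall by 1.60 with an adjusted p of 3.79e-06 in the authors' deposited table. Arnt thus moved against Ahr, and Arnt2 with it. Among the coactivators Ncoa2 rose by 1.15 and Ncoa1 by 0.92, and in the chaperone complex Hsp90ab1 rose by 0.64 and the co-chaperone Ptges3 by 0.26, in the authors' deposited table. Ncoa3 had 0.38 and an adjusted p of 0.0557 there and was not called. With eugenol in both arms, 5 were called higher and 2 lower.

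Among 16 other targets and genes of the AHR battery, 5 were called higher and 0 lower with DMSO, with a median of 1.20 over the 6 listed, where 19.7% of all genes were called higher and 21.2% lower. Nqo1, a quinone reductase that AHR and NRF2 both induce, had 90.9 and 92.1 RPM in ischemia and 30.2 and 28.5 RPM in normoxia, a rise by 1.64 in the authors' deposited table. Nfe2l2, which encodes NRF2, rose by 1.40, the serpin gene Serpinb2 by 2.55, Ereg, a ligand of the EGF receptor, by 1.00 and Ugdh, which makes UDP-glucuronic acid, by 0.38 in the authors' deposited table. Nedd9, an adhesion scaffold, had -0.32 and an adjusted p of 0.0582 there, and it fell by 0.50 where both arms had eugenol. Of the remaining 10 genes, Gsta1 was listed only for eugenol over DMSO in ischemia, with an adjusted p of 0.735 in the authors' deposited table, and 9 had no entry in any table. Nqo1 at 0.25 and Serpinb2 at 1.00 were also listed for eugenol over DMSO in ischemia. In normoxia Nqo1 was listed for eugenol over DMSO at 0.50. None of these eugenol entries was called.

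For the supply of ligands through kynurenine, 3 of 11 genes had an entry in any table. With DMSO 2 of the 11 were called, both higher in ischemia, a share near the 19.7% of all genes called higher. That percentage is over genes tested, and whether the genes with no entry were tested is not known. Aadat, an aminotransferase that turns kynurenine into kynurenic acid, had 3.55 and 5.15 RPM in ischemia with DMSO and 0.544 and 0.373 RPM in normoxia with DMSO, a rise by 3.24 with an adjusted p of 2.17e-06 in the authors' deposited table. Kyat3, another kynurenine aminotransferase that is listed under its older symbol Ccbl2, rose by 0.89 with an adjusted p of 0.0279 in the authors' deposited table. Neither of the first enzymes of the route, Ido1 and Tdo2, had an entry.

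Of 7 genes that feed cytochromes P450 with electrons and haem, 3 were called lower and 1 higher with DMSO, where 21.2% of all genes were called lower and 19.7% higher, with a median of -0.70 over the 4 listed. Cyb5r3, the reductase of cytochrome b5, fell by 0.85 and Fech, the last enzyme of haem synthesis, by 0.72, while Alas1, the first enzyme of that route, rose by 0.33 in the authors' deposited table. With eugenol in both arms the count was 3 lower and 0 higher.

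Among 14 other PARP genes, relatives of Tiparp, 3 were called higher and 3 lower with DMSO, a share near the 40.9% of all genes called, with a median of -0.05 over the 6 listed. Parp6 rose by 0.87, Parp16 by 0.94 and Tnks by 0.52, and Parp1 fell by 0.79, Parp3 by 0.66 and Parp14 by 0.63 in the authors' deposited table. Of 17 other bHLH-PAS genes, the family of AHR, 5 were called higher and 2 lower, again near the 40.9% of all genes. On both of these lists genes with no entry count as not called, and whether they were tested is not known. The called ones not named above were the clock genes Arntl, which rose by 0.69, and Clock, which rose by 0.28, and Npas4, which fell by 2.72 from few reads. Hif1a, the HIF subunit that competes for ARNT, had 0.29 with an adjusted p of 0.0501 with DMSO and rose by 0.26 with an adjusted p of 0.0446 with eugenol in the authors' deposited tables. Epas1, its paralog, was not listed with DMSO and rose by 0.33 with an adjusted p of 0.00481 with eugenol in the authors' deposited table.

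Lists of other stress pathways moved in ischemia over normoxia with DMSO, where 19.7% of all genes were called higher and 21.2% lower. The median log2 fold change over all 7694 genes listed there was -0.27. Of 14 HIF targets 13 were called higher and 0 lower with DMSO, with a median of 1.88 over the 13 listed, and the 3 with the smallest adjusted p were Ero1a, listed as Ero1l, at 3.27, Ndrg1 at 3.67 and Slc2a1 at 2.52. Of the 12 genes on the NRF2 list 9 rose and 0 fell, with a median of 2.14 over the 10 listed, and the 3 with the smallest adjusted p were the ferritin gene Ftl1 at 2.69, Osgin1 at 4.79 and Txnrd1 at 2.36. Nqo1 stands on the AHR and the NRF2 list. The part of these pathways in the levels of Cyp1a1, Cyp1b1, Aldh3a1 and Tiparp was not tested.

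**Figure D3:**
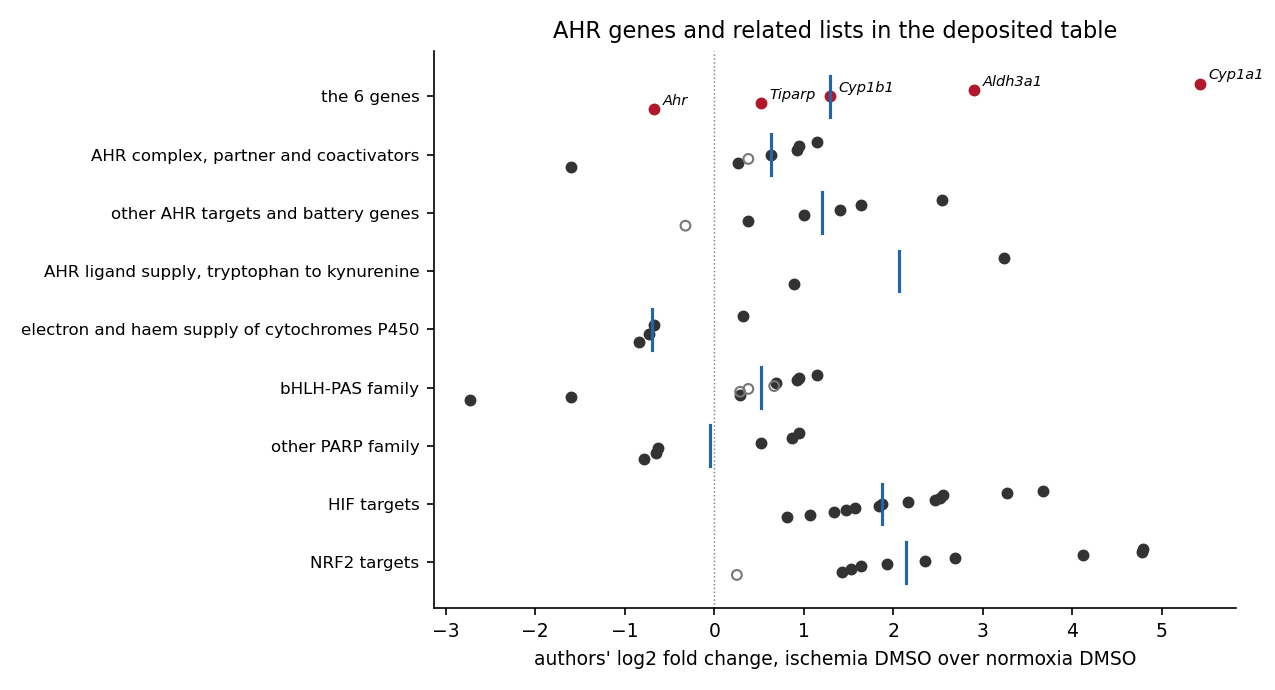
The authors' log2 fold changes, ischemia DMSO over normoxia DMSO (x axis), of the listed genes of each list (rows); filled points have an adjusted p under 0.05, open points a larger one, blue ticks are medians, and heights within a row only separate points. Cyp1a1 at 5.42 lies furthest to the right of the points drawn and Ahr at -0.67 lies left of 0.

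Genes with the most similar profile were sought by the root mean square difference of log2(RPM + 0.5), centred on each gene's mean, over the 8 libraries. Among 5483 genes that averaged 5 RPM or more, those nearest to Cyp1a1 were the metallothionein Mt2A at 0.303, the sulfiredoxin gene Srxn1 at 0.309 and the adhesion molecule Nrcam at 0.347. Mt2A averaged 225 RPM in ischemia with eugenol, 247 in ischemia with DMSO, 13.3 in normoxia with eugenol and 13.8 in normoxia with DMSO. Nearest to Aldh3a1 were the transcription factor Myc at 0.170, Micalcl at 0.174 and the small MAF factor Maff at 0.180. Nearest to Cyp1b1 were Rc3h1, which encodes the RNA-binding protein roquin, at 0.0617, Zfp39 at 0.0644 and Tp53inp1 at 0.0794. Those nearest to Tiparp were the ribonuclease inhibitor Rnh1 at 0.0316, the NF-kB subunit Rela at 0.0390 and Fem1b at 0.0410. Ahr was nearest to the matrix genes Vcan at 0.0605 and Thbs1 at 0.0717 and the kinase gene Grk6 at 0.0629. Within the axis the closest pair was Cyp1b1 and Tiparp at 0.408, and Cyp1a1 lay 0.878 from Aldh3a1 and 2.31 from Ahr. These distances are descriptions over libraries that share groups, and small ones come readily to genes that move little. Cyp1a1 averaged 0.245 RPM and Aldh3a1 0.892 RPM in normoxia with DMSO, so the added 0.5 shrinks their steps and affects their distances.

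**Figure D4:**
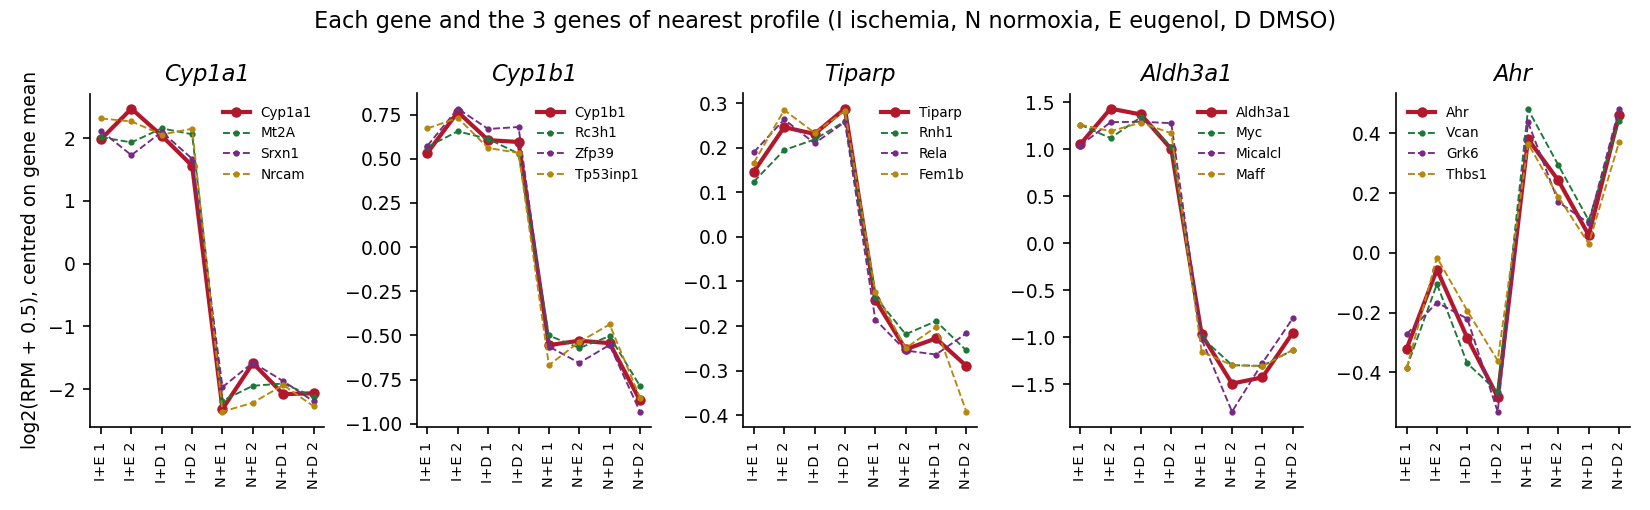
Log2(RPM + 0.5) of each gene (red) and of its 3 nearest genes, centred on each gene's own mean (y axis, scaled per panel), in the 8 libraries (x axis); lines join points of a gene only to guide the eye. In every panel the step lies between the ischemia and the normoxia libraries.

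The cultures carried markers of other cells as well, and those with counts differed with oxygen. A marker had counts only where a comparison gave it an unadjusted p under 0.05. The sums below thus leave out markers that did not differ and do not stand for whole marker sets. The 8 cardiomyocyte markers of 10 with all counts summed to 31999 to 37238 RPM in the ischemia libraries and 61849 to 63863 RPM in the normoxia libraries. Fibroblast markers (8 of 10) summed to 9292 to 10973 RPM in ischemia and 15278 to 17893 RPM in normoxia. Smooth muscle markers (6 of 7) summed to 1481 to 1780 RPM in ischemia and 4544 to 5589 RPM in normoxia. Endothelial markers (4 of 8) were at 71.3 to 93.8 RPM in ischemia and 217 to 261 RPM in normoxia, and macrophage markers (4 of 8) at 24.2 to 32.8 RPM in ischemia and 64.8 to 74.9 RPM in normoxia. Not all markers fell with DMSO, where 19.7% of all genes were called higher and 21.2% lower. Of the cardiomyocyte markers 7 were called lower and 1 higher, Myh7 by 0.40. Of the fibroblast markers 5 were called lower and 2 higher, Dcn by 1.21 and Vim by 0.92. Of the smooth muscle markers 5 were called lower and 1 higher, Pdgfrb by 0.87. Endothelial markers had 5 lower and 0 higher, and macrophage markers 4 lower and 0 higher. The sum of the mesothelial markers (4 of 5) was higher in ischemia, at 18.3 to 24.1 RPM against 10.7 to 13.1 RPM in normoxia. It rested on Wt1, the 1 of them called higher with DMSO, while 2 were called lower and the median of the 4 listed was -1.90. Of all these markers Upk3b alone was at 0 in a library. The defining markers Tnni3, Myh11, Pecam1, Cdh5, Cd68 and Ptprc had no entry in any table. In such bulk RNA fewer cells of a type and less RNA per cell cannot be told apart, and the part of these markers in the levels of Ahr, Cyp1b1 and the other genes was not tested. Whether replicate libraries stem from different cell preparations is not stated, so the spread behind the p-values may be technical only. With 2 libraries on each side, an exact two-sided permutation test reaches no p below 0.33.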

How the data were processed

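RNA of rat cardiomyocytes was sequenced on an Illumina HiSeq from TruSeq libraries, per the labels' protocols. The authors deposited 5 pairwise tables that list a gene only where its unadjusted p was under 0.05. Column codes were assigned to groups from the table titles and labels. Each table gives read counts per gene, deposited by the authors. It gives a normalized signal, which the deposited values show to be the count over 1 size factor per library. FPKM values were deposited by the authors. Count over FPKM and gene length gave the library's total, from which RPM were computed. The log2 fold changes, p-values and adjusted p-values were deposited by the authors. HISAT2, StringTie 1.3.3b, edgeR and DESeq2 are named in the submitters' processing notes without roles, and a genome build is not given in the sources used here.

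Calls were the authors' adjusted p under 0.05, and a gene with no entry counted as not called. Genes whose counts were at hand for all 8 libraries, 6582 in number and each selected by an entry in a table, were refitted with edgeR 4.0.16 quasi-likelihood on the library totals, with 1 group factor. Benjamini-Hochberg adjustment counted unlisted genes as p of 1, up to the number the authors adjusted over, and the interaction was adjusted over the 6582. Ahrr was refitted over genes with counts in its 4 libraries. The refit was tested on simulated data. The genes and lists were chosen with earlier results of these data known. Named were the 6 genes, up to 3 called genes per list of smallest adjusted p, those in counts of 5 or fewer, Arnt, Hif1a and Epas1, and the 3 nearest profiles of each gene. Other genes in the text were chosen after their values were seen. Some list genes that the rule names are not reported here. The alternatives used DESeq2 size factors, TMM, a floor of 5 RPM on the mean, 2 groups alone, DESeq2 1.42.0, the replicate number as a block, an adjusted p under 0.01, a fold of at least 2 and leaving out each library. R 4.3.3 with limma 3.58.1 and Python 3.11.15 with pandas 2.3.3, SciPy 1.17.1, NumPy 2.4.6 and matplotlib 3.10.9 were used. Between the libraries of a group chi-square over degrees of freedom was 6.94 to 14.7, more than sampling noise gives, and intervals called counting intervals cover counting error only.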

Additional observations from a re-analysis of the deposited data

How the results depend on the processing

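Of 334 alternative values of single genes, 295 kept their direction and side of the threshold, 13 passed it newly (all of Ahr or Ahrr in ischemia with eugenol over normoxia with DMSO), 5 lost it and 21 changed sign, all 21 of them uncalled eugenol effects or interactions. The rises of Cyp1a1, Cyp1b1, Aldh3a1 and Tiparp in ischemia kept their calls in every refit that gave a value. The refits reuse the same libraries and genes already selected by an entry, so kept calls are not an independent check. The stricter thresholds below dropped Tiparp, and the minimum of 5 RPM left out Aldh3a1 and Ahrr. In ischemia with eugenol over normoxia with DMSO the edgeR refit called 6 genes, against 4 in the authors' deposited table. The 5 losses among the refits were all of Ahr, by edgeR: those given above, and with eugenol under TMM (-0.42, adjusted p = 0.0512). On the authors' values, a fold of at least 2 left 3 called genes with DMSO and 3 with eugenol, and an adjusted p under 0.01 left 3 with eugenol; Ahr and Tiparp were the genes dropped each time. Leaving out 1 library gave 4 to 5 called genes with DMSO and 4 to 5 with eugenol in both arms, and 0 for eugenol and the interaction. For the interaction, Cyp1a1 was at -0.0017 with DESeq2 size factors, -0.0089 with the replicate block, -0.27 without ischemia eugenol 2, -0.22 without ischemia DMSO 2, -0.71 without normoxia eugenol 1 and -0.014 without normoxia DMSO 2. Aldh3a1 was at -0.31 without normoxia DMSO 2, -0.25 without normoxia eugenol 2, -0.075 without ischemia DMSO 2 and -0.11 without ischemia eugenol 2. Without normoxia DMSO 2, Cyp1b1 was at 0.053 and Ahr at -0.057, and Cyp1b1 was at 0.011 without ischemia eugenol 1. For eugenol in ischemia, Cyp1b1 was at -0.067 and Aldh3a1 at -0.16 without ischemia eugenol 2, and Aldh3a1 at -0.12 without ischemia DMSO 2. For eugenol in normoxia, Cyp1a1 was at -0.92 and Aldh3a1 at 0.30 without normoxia eugenol 2, Aldh3a1 at 0.37 without normoxia DMSO 2, and Ahr at -0.15 without normoxia DMSO 1 and -0.032 without normoxia eugenol 1. A lone library left in a group is assumed to vary like the others. Same-numbered deviations correlated at -0.23 to 0.12, so no strong shift shared by replicate number was seen. Such correlations cannot show whether the libraries were paired by preparation. With the replicate numbers as a block, 5 genes were called with DMSO, 5 with eugenol and 0 for eugenol and the interaction. The few normoxia reads of Cyp1a1 and Aldh3a1 limit every eugenol statement about them there.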

Other observations

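Relatives of the target genes were looked up after their values had been seen. In ischemia over normoxia with DMSO, 10 cytochrome P450 genes were listed in the authors' deposited table, 6 called higher and 2 lower. Of all 7694 genes listed there 6713 were called, which is 40.9% of all genes tested. Beside Cyp1a1 and Cyp1b1 the called rises were in Cyp7b1, which hydroxylates oxysterols, at a log2 fold change of 2.00, Cyp39a1 at 1.20, Cyp4v3 at 1.12 and Cyp27a1 at 0.90 in the authors' deposited table. The called falls there were in Cyp51, an enzyme of cholesterol synthesis, at -1.63 and Cyp2u1 at -0.62. Of 9 listed aldehyde dehydrogenase genes 2 were called higher and 6 lower with DMSO, with a median of -0.46, and of 9 listed with eugenol in both arms 5 were called higher and 4 lower, with a median of 0.25. Of all genes listed, 6713 of 7694 were called with DMSO and 6578 of 7526 with eugenol. These are 40.9% and 41.1% of all genes tested. With DMSO Aldh3a1 at 2.91 stood above Aldh9a1 at 0.37, the other called rise in the authors' deposited table. Aldh18a1 was at -2.78 with DMSO and at 1.34 with eugenol in the authors' deposited tables, both from low levels. It averaged 0.414 RPM in ischemia and 2.82 RPM in normoxia with DMSO, and 6.04 and 2.39 RPM with eugenol. Among the falls with DMSO Aldh1l2, a mitochondrial folate enzyme, was at -1.10 and Aldh7a1 at -0.46 in the authors' deposited table.

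Among the 4 ischemia libraries, Cyp1a1, Aldh3a1 and Ahr shared an order in RPM: the second eugenol library was highest, then the first DMSO, the first eugenol and the second DMSO library. Cyp1b1 and Tiparp had other orders, and 323 of the 6582 genes, 4.91%, had this one. It was noticed after the values were seen and is given as a description.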
